A study of Mus musculus with 4 samples.

Results

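The HoxC cluster genes Hoxc4, Hoxc5, Hoxc6, Hoxc8, Hoxc9 and Hoxc10 were followed in mouse embryonic forelimbs that lacked Sonic hedgehog (Shh null) and in forelimbs of wild-type littermates, with 2 RNA sequencing libraries in each group. The genes were chosen by name and taken in their order along the cluster, as 6 of the 17712 genes measured. The embryos came from the Swiss Webster stock and had 33 to 35 somites, aged E10.25 by the age label and E10.5 by the source label. The labels give neither the Shh allele nor how many embryos went into a library, and the study's design text calls the replicates technical. The p-values below therefore measure only the spread between these libraries. Levels are in CPM, the reads of a gene per 1000000 reads of the scaled library size. The libraries held 18456502 to 29620468 reads on genes. A gene with a count of 0 could have up to 3 reads, which are worth 0.105 to 0.165 CPM.

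Shh was measured at 3.15 and 2.42 CPM in Shh null and at 11.4 and 7.88 CPM in wild type, in the direction of the labels. Tbx5, which marks the forelimb, stood at 80.2 and 64.96 CPM in Shh null and 65.03 and 61.5 CPM in wild type, whereas Pitx1, which specifies the hindlimb, stayed at or below 0.457 CPM in every library. Tbx4, also known from the hindlimb, reached 3.69 and 3.11 CPM in Shh null and 4.53 and 3.69 CPM in wild type.

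Hox genes encode homeodomain transcription factors and lie in the clusters HoxA to HoxD in the order in which they are used along the body axis, with the genes at the 3′ end of a cluster active furthest towards the head. HoxA and HoxD are known for patterning the limb from shoulder to digits, while HoxC is best known for assigning position along the trunk and spinal cord. In mice, Hoxc5 acts with its paralogues Hoxa5 and Hoxb5 in the anterior forelimb bud, where they restrict Shh to the posterior margin. Hoxc6 and Hoxc8 are used by spinal motor neurons at the level of the forelimb, Hoxc8 also in the identity of vertebrae and ribs, Hoxc9 by thoracic motor neurons, and Hoxc10 at the level of the hindlimb.

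All 6 genes lie on the plus strand of chromosome 15 (mm10), in the order Hoxc10, Hoxc9, Hoxc8, Hoxc6, Hoxc5 and Hoxc4 as coordinates increase, so that transcription runs towards the Hoxc4 end. The coding transcript of Hoxc4 starts at 103034395 and that of Hoxc10 at 102966796, 67.6 kb upstream. Hoxc5 starts 20.6 kb, Hoxc6 24.8 kb, Hoxc8 43.8 kb and Hoxc9 57.4 kb upstream of Hoxc4. In GENCODE M21 the gene Hoxc5 also has a long non-coding transcript that begins inside Hoxc10, with 166 exonic bases in common between these genes, where a read cannot be assigned to either with certainty. No other exonic base of the 6 genes is shared with another annotated gene.

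The proteins recognise DNA through the last helix of the homeodomain, and the bases that code for it show how alike the members are and where reads of different Hox genes could be confused. The 51 bases of Hoxc4, Hoxc6, Hoxc8, Hoxc9 and Hoxc10 are given 5′ to 3′ on the plus strand of mm10, read from the GENCODE M21 transcripts, with capitals at the bases that differ from Hoxc6.
Hoxc4 (chr15:103035786-103035836): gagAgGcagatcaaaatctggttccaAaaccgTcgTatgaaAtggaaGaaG
Hoxc6 (chr15:103010877-103010927): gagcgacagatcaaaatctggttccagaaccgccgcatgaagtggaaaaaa
Hoxc8 (chr15:102992694-102992744): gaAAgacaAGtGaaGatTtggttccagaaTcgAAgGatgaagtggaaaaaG
Hoxc9 (chr15:102984053-102984103): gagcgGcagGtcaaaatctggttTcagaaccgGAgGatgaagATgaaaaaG
Hoxc10 (chr15:102970971-102971021): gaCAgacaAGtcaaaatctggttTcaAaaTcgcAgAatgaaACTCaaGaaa

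Hoxc4 differed from Hoxc6 at 8 of these bases, Hoxc9 at 9, Hoxc8 at 12 and Hoxc10 at 14. Over whole coding transcripts, the longest run of bases identical to any of 37 other Hox genes was 20 bases for Hoxc4, 23 for Hoxc10, 26 for Hoxc8, 28 for Hoxc6 and 31 for Hoxc5. Hoxc9 stood apart with a run of 50 bases in common with Hoxb9, so reads of this pair are the least certain to be told apart. The read length is not given in the sources used here.

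The cluster also holds 2 microRNA genes, Mir196a-2 between Hoxc10 and Hoxc9 and Mir615 within Hoxc5. The miR-196a family is known to act on transcripts of Hox genes of group 8. Both microRNAs with a seed match in a member's 3′ UTR are shown with those matches. The mature microRNAs (RefSeq, GRCm38.p6) have their seed, bases 2 to 8, in capitals, and the sites (mm10, plus strand) the bases complementary to it.
mmu-miR-196a-5p (chr15:102973365-102973386, plus strand): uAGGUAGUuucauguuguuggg
Hoxc8 site nearer the stop codon (chr15:102992976-102992997): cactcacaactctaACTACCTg
Hoxc8 site nearer the transcript end (chr15:102993733-102993754): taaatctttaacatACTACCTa
mmu-miR-615-5p (chr15:103014926-103014947, plus strand): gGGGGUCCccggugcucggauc
Hoxc6 site (chr15:103011174-103011195): taaaagtcagctttGGACCCCc

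Of the 6 members, Hoxc8 held 2 seed matches (ACTACCT) in a 3′ UTR of 969 bases and the other 5 held 0. Among 38 Hox genes searched in the same way, 8 held at least 1 match (21.1%). For miR-615-5p, Hoxc6 held 1 match (GGACCCC) and the other 5 members 0, beside 3 of the 38 Hox genes (7.89%). The seeds of miR-196a-2-3p and miR-615-3p had 0 matches in the 6 members. Mir196a-2 itself drew 0 and 0 reads in Shh null and 1 and 1 reads in wild type, and whether the libraries retained RNA this short is not given in the sources used here. Of the members' promoters, the RefSeq table (GRCm38.p6) gave Hoxc4 alone, and its window of 300 bases held no GLI motif, the sequence bound by the effectors of hedgehog signalling, on either strand (GACCACCCA or TGGGTGGTC). Over 32851 promoter windows, 0.253% held this motif.

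Along the cluster the level per length was highest at Hoxc6 and Hoxc5, lower at Hoxc8 and Hoxc4 on either side, and lowest at Hoxc9 and Hoxc10. Per kilobase of annotated exon, Hoxc6 had 10.20 ± 1.36 CPM per kb in Shh null and 5.72 ± 1.06 in wild type (SD, n = 2 each). Hoxc5 followed with 7.85 ± 0.036 CPM per kb in Shh null and 4.49 ± 1.35 in wild type, then Hoxc8 with 4.24 ± 0.70 and 2.91 ± 0.44, and Hoxc4 with 3.46 ± 0.000074 and 2.07 ± 0.71. Hoxc9 had 0.675 ± 0.16 CPM per kb in Shh null and 0.474 ± 0.13 in wild type, and Hoxc10 0.0794 ± 0.011 and 0.172 ± 0.12. The order of the 6 genes was the same in both groups. Of the neighbours in this order, only Hoxc6 and Hoxc5 overlapped, and only in wild type, where the libraries had 4.97 and 6.47 CPM per kb of Hoxc6 and 3.53 and 5.44 of Hoxc5. Hoxc8, at 3.22 and 2.61 CPM per kb in wild type, and Hoxc4, at 1.57 and 2.57, were apart there by a narrow margin. With coding length in place of exon length, Hoxc5 came before Hoxc6 and the other 4 genes kept their places.

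**Figure D1:**
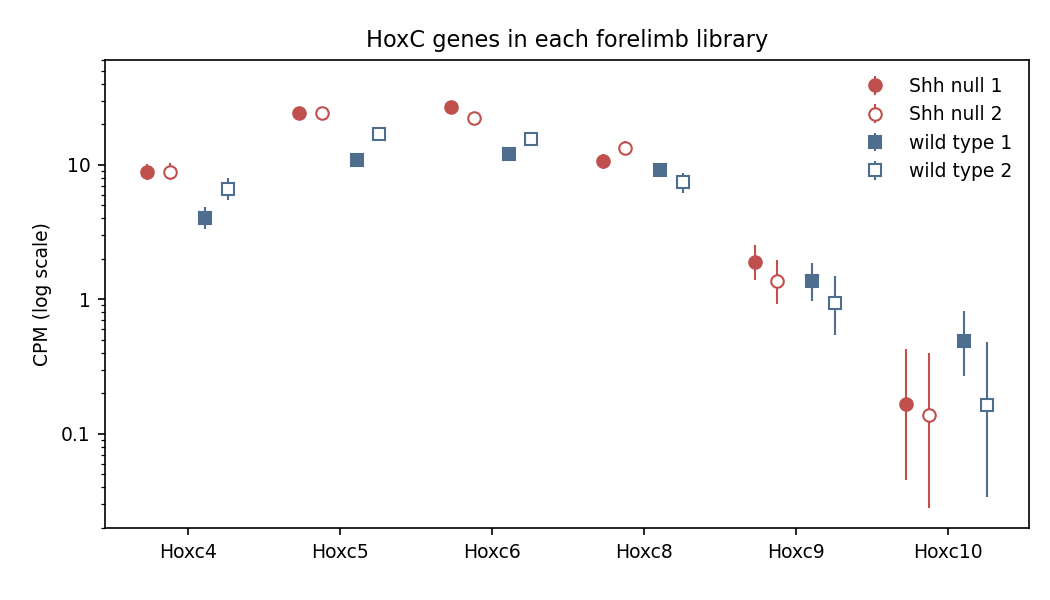
CPM of the 6 HoxC genes on a log axis, in cluster order from Hoxc4 to Hoxc10, with 1 point per library (Shh null, circles; wild type, squares) and bars for the 95% Poisson counting interval. For Hoxc4, Hoxc5, Hoxc6, Hoxc8 and Hoxc9 both Shh null points lie above both wild-type points, by a narrow margin for Hoxc9. Hoxc10 is near the limit of detection except in wild type 1, where it is at 0.491 CPM (interval 0.269 to 0.824).

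Hoxc6 rose in Shh null forelimbs. It was measured at 26.9 and 22.2 CPM in Shh null and at 11.97 and 15.6 CPM in wild type. Both Shh null libraries lay above both wild-type libraries, and each group varied within itself, 1.21-fold in Shh null and 1.30-fold in wild type. The means of 24.6 ± 3.28 and 13.8 ± 2.56 CPM (SD, n = 2 each) differed 1.78-fold, with a log2 fold change of 0.79 ± 0.16 (SE; limma on log2(CPM + 1), adjusted p = 0.0351). On this scale the pseudocount shrinks fold changes, most of all for genes near 1 CPM. The call ended without Shh null 1 (limma adjusted p = 0.350), without Shh null 2 (0.0989), with no filter on low values (0.0886) and with quantile normalization (0.0614). The adjusted p was 0.0465 without wild type 1 and 0.000305 without wild type 2. With 1 library left out, the spread comes from the other group alone, and the lone library is assumed to vary like that group, so these p-values are no support for a call. In bulk tissue, more cells of a type and more RNA per cell cannot be told apart.

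Hoxc5 showed a difference of the same size that missed the threshold. It was measured at 24.2 and 24.3 CPM in Shh null and at 10.9 and 16.8 CPM in wild type. The Shh null libraries were nearly equal, whereas the wild-type libraries differed 1.54-fold, with counting intervals of 9.73 to 12.2 and 14.97 to 18.8 CPM that do not overlap. The ratio of means was 1.75 and the log2 fold change 0.79 ± 0.18 (SE; limma adjusted p = 0.0567), with a 95% interval of 0.38 to 1.21 before adjustment. Hoxc5 was called higher by DESeq2 (adjusted p = 0.00841) and was not called by edgeR (0.0586). The log2 fold change depended on the wild-type library kept, at 0.50 without wild type 1 (limma adjusted p = 0.132) and 1.08 without wild type 2, where the gene passed the threshold (4.4e-05) with its spread taken from the nearly equal Shh null libraries alone.

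Hoxc4, at the 3′ end of the cluster, had 8.87 and 8.87 CPM in Shh null and 4.04 and 6.61 CPM in wild type. As for Hoxc5, the Shh null libraries were equal to 3 digits and the spread lay in wild type, where the libraries differed 1.64-fold. The ratio of means was 1.67, with a log2 fold change of 0.67 ± 0.21 (SE; limma adjusted p = 0.127). The log2 fold change was 0.38 without wild type 1 (limma adjusted p = 0.478) and 0.97 without wild type 2, where the gene passed the threshold (0.00363), again with its spread from the Shh null libraries alone.

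Hoxc8 was measured at 10.6 and 13.4 CPM in Shh null and at 9.12 and 7.38 CPM in wild type. The groups were apart by a small margin, and here wild type 1, the lower library for Hoxc4, Hoxc5 and Hoxc6, was the higher of its group. The ratio of means was 1.46 and the log2 fold change 0.49 ± 0.17 (SE; limma adjusted p = 0.174), with a 95% interval of 0.10 to 0.88 before adjustment. Hoxc8 was called under none of 12 alternatives, among them edgeR (adjusted p = 0.169) and DESeq2 (0.266). Hoxc9 was measured at 1.91 and 1.37 CPM in Shh null and at 1.37 and 0.937 CPM in wild type, from 17 to 46 reads per library. Shh null 2 and wild type 1 were equal to 3 digits, and the log2 fold change of 0.29 ± 0.21 (SE; limma adjusted p = 0.491) had an interval from −0.18 to 0.76.

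Hoxc10 was counted in 4 and 3 reads in Shh null and in 14 and 3 reads in wild type, or 0.166 and 0.137 CPM and 0.491 and 0.165 CPM. It was below the filter for testing, which asked for at least 1 CPM in at least 2 libraries. Over pooled reads the ratio of Shh null to wild type was 0.418 with a 95% counting interval of 0.146 to 1.06, and 1 library, wild type 1, held 14 of the 17 wild-type reads. A difference in Hoxc10 was not detectable at this depth.

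Of the 6 members, 5 could be tested. Limma called Hoxc6 higher and none of the other 4 in either direction, where it called 2.48% of 13224 tested genes in either direction and 1.24% higher. At an unadjusted p under 0.05 limma placed 4 higher (9.5% of all tested genes) and 0 lower, and 0 were called lower by edgeR or DESeq2. The share of all tested genes lower at this unadjusted threshold is not given here, so counts of lower genes in the lists below lack that comparison. EdgeR called 1 member higher, where it called 2.45% of all tested genes in either direction and 1.33% higher. DESeq2 called 2 higher, beside 3.98% of genes in either direction and 1.91% higher. The median log2 fold change of the 5 genes was 0.67, beside −0.0005 over all tested genes, of which 49.9% had a log2 fold change above 0. In each of the 5 both Shh null libraries lay above both wild-type libraries, as in 25.1% of all tested genes, while 25% had both below. For Hoxc9 this rested on 1.372 CPM in Shh null 2 against 1.369 CPM in wild type 1, which were nearly equal. In the authors' deposited table, Hoxc6 (log2 fold change 0.84, FDR 0.00122) and Hoxc5 (0.82, FDR 0.00588) passed an FDR of 0.05, as did 4.01% of 17712 genes in either direction and 2.33% higher in Shh null. The same deposited table gave Hoxc4 a log2 fold change of 0.76 with an FDR of 0.0808, and Hoxc8 0.53 with an FDR of 0.175.

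**Figure D2:**
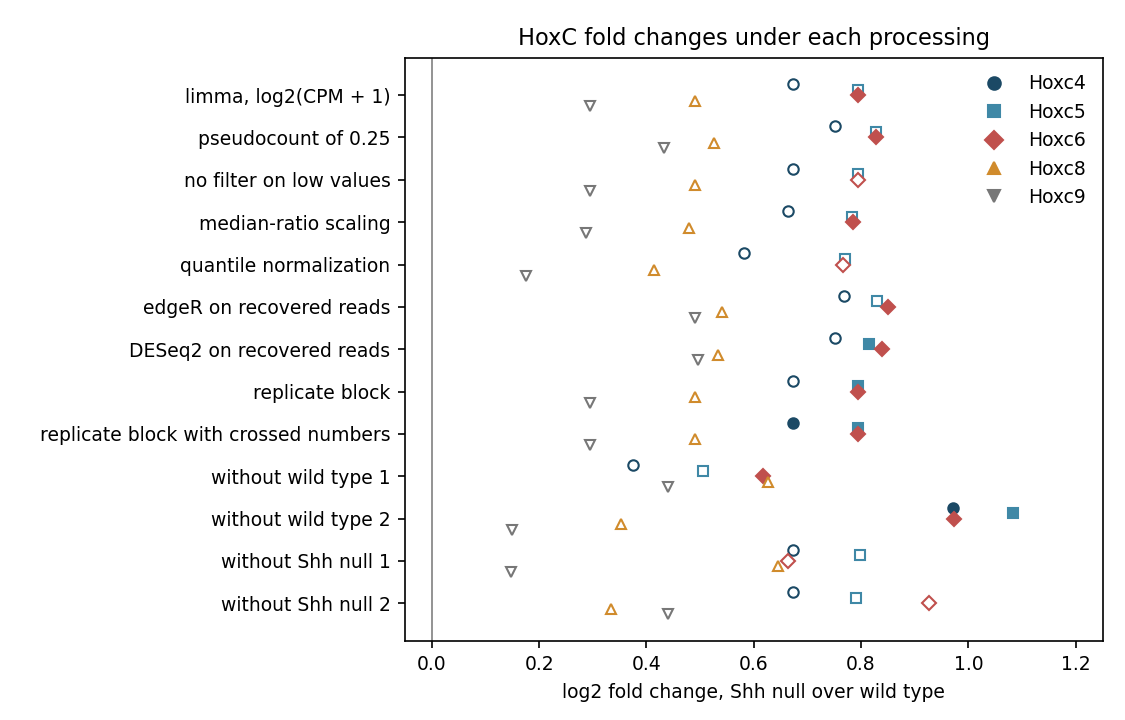
Log2 fold change of the 5 tested HoxC genes, Shh null over wild type, in the limma fit and under each of 12 alternatives (rows), with filled symbols where the adjusted p was under 0.05. All symbols lie above 0, Hoxc6 is filled in 9 of the 13 rows, and leaving out a wild-type library moves Hoxc4 and Hoxc5 most.

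Summed over the 6 members, the libraries had 72.6 and 70.4 CPM in Shh null and 37.9 and 47.5 CPM in wild type. The means of 71.5 ± 1.60 and 42.7 ± 6.78 CPM (SD, n = 2 each) stood in a ratio of 1.67, between 1.51 and 1.89 with any 1 library left out. The make-up of the sum separated wild type 1 from the other libraries more than it separated the groups. Hoxc4, Hoxc5 and Hoxc6 together took 82.5% and 78.8% of the 6 genes' reads in Shh null, and 71.0% in wild type 1 and 82.1% in wild type 2. Hoxc8 took 14.6% (95% exact binomial interval 13.0 to 16.4) and 19.1% (17.1 to 21.1) in Shh null, and 24.1% (21.6 to 26.7) and 15.5% (13.2 to 18.1) in wild type. Such intervals cover counting error only. The 2 Shh null libraries thus differed in the Hoxc8 share beyond counting error, and wild type 2 had a share within the range of the Shh null libraries.

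**Figure D3:**
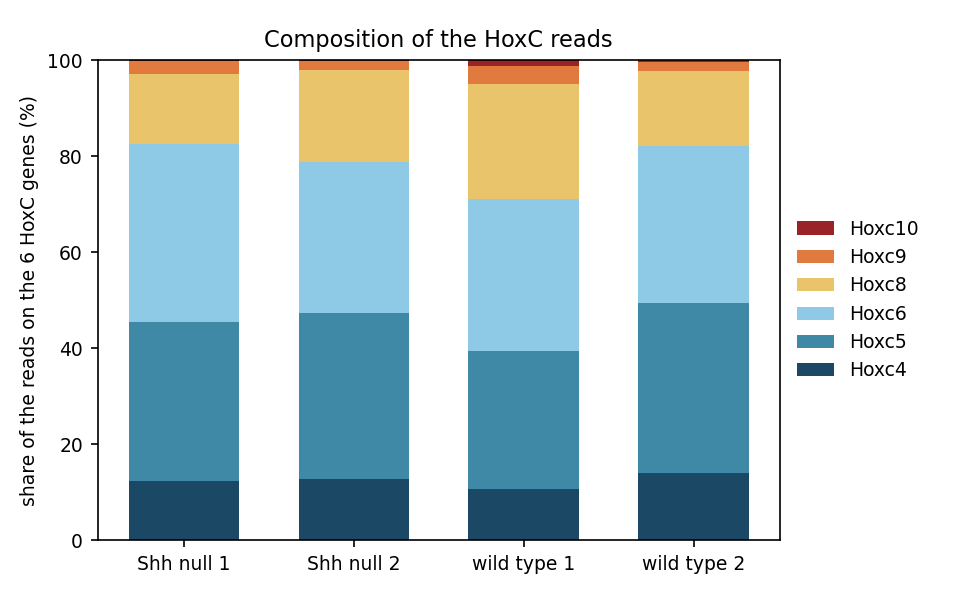
Share of the reads on the 6 HoxC genes that fell on each gene, as 1 stacked bar per library with Hoxc4 at the bottom and Hoxc10 at the top. Hoxc4, Hoxc5 and Hoxc6 make up between 71.0% (wild type 1) and 82.5% (Shh null 1) of each bar.

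In the part of the cluster 5′ of Hoxc10, known from the hindlimb, tail and hair follicle, Hoxc13 was low and Hoxc12 and Hotair were barely present. Hoxc13 was measured at 1.95 and 1.05 CPM in Shh null and at 1.26 and 1.10 CPM in wild type, with overlapping groups (limma adjusted p = 0.721). Hoxc12 was counted in 1 and 0 reads in Shh null and in 2 and 1 reads in wild type, and Hotair, a long non-coding RNA gene on the opposite strand, in 1 and 2 reads and in 0 and 2 reads. Hoxc11 is not among the genes measured and so has no level here. Only its sequence was used, in the comparisons with other Hox genes above. Hoxc13 is farther from Hoxc4 than Hoxc10 is, yet its level per kilobase, 0.610 ± 0.26 CPM per kb in Shh null and 0.481 ± 0.046 in wild type (SD, n = 2 each), was above that of Hoxc10. It was close to that of Hoxc9, at 0.675 ± 0.16 CPM per kb in Shh null and 0.474 ± 0.13 in wild type.

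Paralogues in HoxA, HoxB and HoxD show whether genes of the same group moved alike. Of 14 paralogues of the members, 13 could be tested, with a median log2 fold change of 0.09. Limma called 1 higher and 2 lower and did not call 10, where it called 1.24% of all tested genes higher and 2.48% in either direction. Hoxb9 was at 3.98 and 3.98 CPM in Shh null and 0.737 and 1.16 CPM in wild type, a log2 fold change of 1.36 ± 0.19 (SE; limma adjusted p = 0.00713). It is the gene that shares 50 bases with Hoxc9, and the part of read sharing in the Hoxc9 values was not tested. Hoxa10 was at 104 and 103 CPM in Shh null and 170 and 149 CPM in wild type (log2 fold change −0.62, limma adjusted p = 0.0146), and Hoxd10 at 40.5 and 46.9 CPM in Shh null and 78.7 and 85.1 CPM in wild type (−0.89, adjusted p = 0.00361). The Hoxb9 and Hoxa10 calls ended without either Shh null library, and that of Hoxd10 without Shh null 1.

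Within group 4, Hoxb4 had a log2 fold change of 0.50, Hoxa4 of 0.09 and Hoxd4 of 0.09, beside 0.67 for Hoxc4. Within group 5, Hoxb5 had 0.45 and Hoxa5 0.40, beside 0.79 for Hoxc5, and within group 6 Hoxb6 had 0.58 and Hoxa6 0.27, beside 0.79 for Hoxc6. These 7 paralogues were not called by limma, and the differences between paralogues were not tested. In group 8, Hoxd8 had a log2 fold change of −0.42 (limma adjusted p = 0.146), opposite in sign to Hoxc8, and Hoxb8 was below the filter at 0.829 and 1.19 CPM in Shh null and 0.351 and 0.386 CPM in wild type. In group 9, Hoxa9 (−0.09) and Hoxd9 (−0.04) were not called. The sign was not stable for Hoxa4, which was at −0.056 with quantile normalization, or for Hoxd9, which was at 0.28 without wild type 2.

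**Figure D4:**
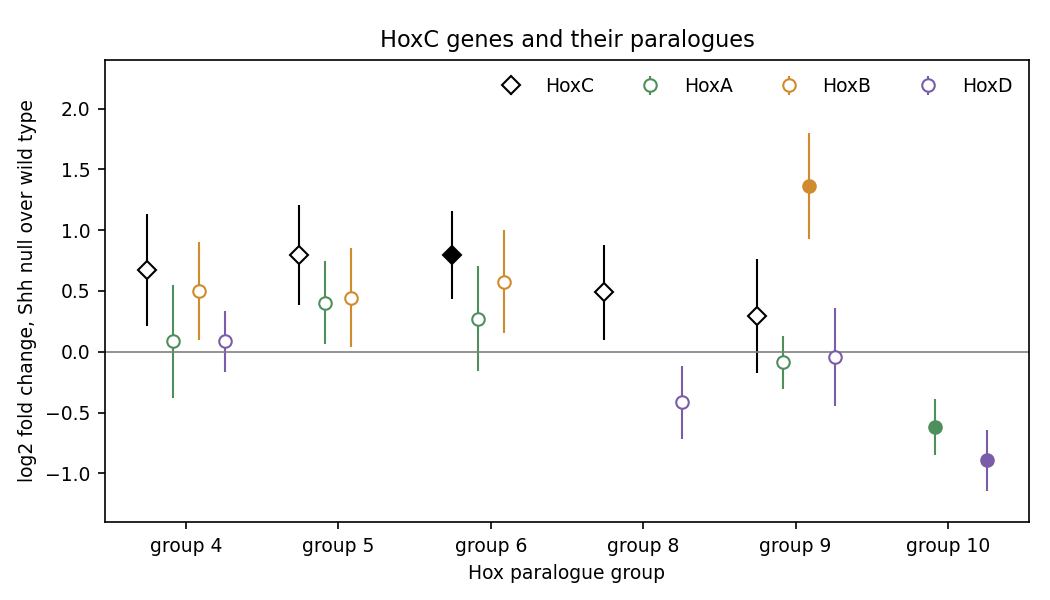
Log2 fold change of the tested HoxC genes and of their HoxA, HoxB and HoxD paralogues by paralogue group, Shh null over wild type, with 95% intervals before adjustment and filled symbols where the limma adjusted p was under 0.05. The HoxC symbols lie between 0.29 and 0.79, and the filled symbols are Hoxc6, Hoxb9, Hoxa10 and Hoxd10.

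As a share of all reads on HoxA to HoxD genes, the 8 measured HoxC genes held 13.3% and 12.3% in Shh null, and 4.13% and 5.61% in wild type. Summed HoxC was 1.66 times as high in Shh null as in wild type, and summed HoxD, at 182 and 196 CPM in Shh null and 552 and 472 CPM in wild type, was 0.370 times as high. Summed HoxB was 1.55 times and summed HoxA 0.785 times as high.

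Of 18 genes listed on either side of the cluster, 15 could be tested, with 0 called higher and 0 lower by limma and a median log2 fold change of 0.02. At an unadjusted p under 0.05 limma placed 2 higher (9.5% of all tested genes) and 1 lower. EdgeR (adjusted p = 0.0467) and DESeq2 (0.0104) each called Calcoco1 higher, and no other gene of the list. Of all tested genes, edgeR called 1.33% higher and DESeq2 1.91%. The largest differences were in Calcoco1, upstream of Hoxc13, at 32.9 and 25.8 CPM in Shh null and 18.0 and 18.7 CPM in wild type (log2 fold change 0.64, limma adjusted p = 0.0522), and in Nckap1l, a gene of blood cells, at 4.89 and 4.76 CPM in Shh null and 2.60 and 3.42 CPM in wild type (0.55, adjusted p = 0.153).

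Hox proteins bind DNA with TALE homeodomain partners of the Pbx, Meis and Pknox families. None of 9 such genes was called by limma in either direction, and their median log2 fold change was 0.28. At an unadjusted p under 0.05 limma placed 4 higher (9.5% of all tested genes) and 1 lower. EdgeR called 0, and DESeq2 called 1 higher, where it called 1.91% of all tested genes higher. Pknox2 was at 1.20 and 0.915 CPM in Shh null and 2.07 and 2.31 CPM in wild type. Pbx4 was at 1.58 and 1.01 CPM in Shh null and 0.807 and 0.551 CPM in wild type, and met the filter only through the Shh null libraries. Polycomb and trithorax genes keep Hox clusters silent or active, and of 19 tested limma, edgeR and DESeq2 each called 0. At an unadjusted p under 0.05 limma placed 1 higher, beside 9.5% of all tested genes. The largest differences there were in Ring1 (log2 fold change 0.58) and Cbx7 (0.53). Of 8 tested genes that set Hox expression along the trunk, Lin28b, an RNA-binding regulator of developmental timing, fell to 98.9 and 119 CPM in Shh null, against 160 and 192 CPM in wild type (log2 fold change −0.68, limma adjusted p = 0.0222), a call that ended without either Shh null library, with no filter on low values (0.0566) and with quantile normalization (0.0563). The other 7 were not called, where limma called 2.48% of all tested genes in either direction. Lin28a was at 13.5 and 22.9 CPM in Shh null and 18.9 and 30.6 CPM in wild type.

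Tissues beside the limb that use HoxC genes were followed through their markers. Of 14 spinal cord markers 11 were in the table, with a summed level of 14.1 and 13.7 CPM in Shh null and 15.4 and 13.5 CPM in wild type, with Tubb3 the highest of them in each library at 7.93 to 9.25 CPM. The defining markers Sox1, Sox2, Pax6, Nkx6-1, Mnx1 and Lhx3 were at or below 0.412 CPM in every library. Sox2, Mnx1 and Lhx3 were at 0 in both Shh null libraries. In wild type they drew 6 and 1 reads (Sox2), 7 and 2 (Mnx1) and 2 and 2 (Lhx3). For Sox1, Pax6 and Nkx6-1 the groups overlapped. None of the 3 tested spinal cord markers was called by limma, edgeR or DESeq2, and limma placed 0 at an unadjusted p under 0.05. Somite and trunk markers, 7 of 9 in the table, summed to 177 and 147 CPM in Shh null and 184 and 158 CPM in wild type. Most of each sum came from Tbx18 and Meox2. Tbx18 was at 74.0 and 60.3 CPM in Shh null and 62.2 and 57.4 CPM in wild type. Meox2 was at 62.3 and 47.9 CPM in Shh null and 94.0 and 62.6 CPM in wild type. Whether these reads came from somite or limb cells was not tested, and Pax3 is also counted among the myogenic markers. Of the somite and trunk markers, limma called Pax1 higher and did not call the other 5 tested, where it called 1.24% of all tested genes higher. At an unadjusted p under 0.05 limma placed 1 higher (9.5% of all tested genes) and 2 lower. The lower ones were Meox1 (log2 fold change −0.40) and Meox2 (−0.48). In these both Shh null libraries lay below both wild-type libraries, as in 25% of all tested genes. Neural crest markers, 8 of 10 in the table, summed to 29.7 and 26.6 CPM in Shh null and 20.99 and 18.1 CPM in wild type. Most of each sum came from Erbb3, which was called higher, while Sox10 and Foxd3 were at or below 0.551 CPM. Pou4f1 was called lower, at 0.0829 and 0.229 CPM in Shh null (2 and 5 reads) and 1.72 and 1.16 CPM in wild type (49 and 21 reads). It met the filter only through the wild-type libraries, where it was high, so its call is given as a description. The part of somite and neural crest tissue in the HoxC values was not tested.

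Markers of limb mesenchyme changed in both directions, most of them upwards. The 7 mesenchyme markers summed to 1513 and 1495 CPM in Shh null and 992 and 1043 CPM in wild type, with 5 called higher (Prrx1, Prrx2, Twist1, Lhx2 and Lhx9), 1 lower (Fgf10) and 1 not called (Msx1), where limma called 1.24% of all tested genes higher. Summed endothelial markers were at 176 and 184 CPM in Shh null and 156 and 205 CPM in wild type, with none of 5 called by limma, edgeR or DESeq2 and 0 at an unadjusted p under 0.05 in limma. Summed surface ectoderm markers were at 333 and 345 CPM in Shh null and 303 and 295 CPM in wild type. None of 7 ectoderm markers was called by limma, edgeR or DESeq2. At an unadjusted p under 0.05 limma placed 2 higher, Krt5 and Cdh1, beside 9.5% of all tested genes, and 0 lower. Summed myogenic markers were at 110 and 111 CPM in Shh null and 93.4 and 100.05 CPM in wild type. None of 4 tested was called by the 3 tools. At an unadjusted p under 0.05 limma placed 1 higher (Met), as it did 9.5% of all tested genes, and 1 lower (Myog). Myog met the filter only through the wild-type libraries, at 0.664 and 0.503 CPM in Shh null and 1.19 and 1.21 CPM in wild type. The part of cell composition in the HoxC values was not tested.

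Among 13218 tested genes outside the HoxC cluster, the 3 whose centred log2(CPM + 1) values over the 4 libraries lay nearest to those of the summed HoxC level were Nxph3, Emilin2 and Slit2, at Euclidean distances of 0.044, 0.055 and 0.073. Slit2, which encodes a secreted guidance protein, was at 68.1 and 63.2 CPM in Shh null and 36.1 and 45.6 CPM in wild type (log2 fold change 0.68, limma adjusted p = 0.0249). Emilin2, an extracellular matrix gene, was at 48.2 and 45.8 CPM in Shh null and 25.5 and 30.5 CPM in wild type (0.73, adjusted p = 0.0161). Nxph3 was at 2.07 and 1.97 CPM in Shh null and 0.562 and 0.992 CPM in wild type (0.78, adjusted p = 0.0844). It met the filter only through the Shh null libraries. The calls of Slit2 and Emilin2 ended without either Shh null library, and that of Slit2 also with no filter on low values. With 4 libraries such likeness is a description. The genes were picked for following the summed HoxC level, so their fold changes and p-values rest on the values that picked them. They are no separate support for a difference.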

How the data were processed

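Per gene and library, the deposited table holds a single signal value, called a normalized count in the file. For these values the submitters' processing notes list the build mm10 and, as tools, edgeR 3.4.2, HTSeq 0.5.4p5, SAMtools and TopHat2 2.0.9, while no annotation or strand setting is given in the sources used here. Every value was a whole multiple of what 1 read is worth in its column (100% of values, tolerance 0.001 reads). The whole reads were recovered by division, and TMM factors recomputed from them matched the deposited scale with a difference of 0%, so the values are CPM of the TMM-scaled library. The authors' comparison table gives the log2 fold change, p-value and false discovery rate as deposited by the authors.

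Genes with at least 1 CPM in at least 2 of 4 libraries (13224) were fitted with limma 3.58.1 in R 4.3.3 on log2(CPM + 1), with genotype as the only term and an intensity trend; two-sided p-values were adjusted over all tested genes by Benjamini-Hochberg, and genes under 0.05 were called. edgeR 4.0.16 and DESeq2 1.42.0 on the recovered reads, other scalings, pseudocounts and filters, the replicate block and leaving out each library were alternatives. The steps were tested on simulated data. Lengths and coordinates are from GENCODE M21 (mm10). One member's helix sequence and 1 marker gene are not reported here. Members and lists were chosen with earlier results of these data known. Genes named are the 6 members, Shh, all measured HoxC 5′ genes and paralogues, and of every other list up to 4 called genes with the largest change, or the top 2 where fewer than 2 were called, and the 3 genes nearest in pattern; marker genes were named as defining or leading their sums, after their values were seen.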

Additional observations from a re-analysis of the deposited data

How the results depend on the processing

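The direction of Hoxc4, Hoxc5, Hoxc6, Hoxc8 and Hoxc9 was positive under all 12 alternatives, with log2 fold changes of 0.38 to 0.97, 0.50 to 1.08, 0.62 to 0.97, 0.33 to 0.64 and 0.15 to 0.50 in that order. For each of these genes both Shh null libraries lay above both wild-type libraries. Refits that left out 1 library or used a replicate block therefore had to be positive. The other alternatives reprocessed the same libraries, so the shared sign is no separate support for the direction. Hoxc8 and Hoxc9 were called in 0 of 12. The number of HoxC genes called higher was 1 in limma, 0 with no filter on low values and with quantile normalization, 2 (Hoxc5 and Hoxc6) with DESeq2 and with the replicate block (adjusted p of Hoxc5 0.0133), and between 0 and 3 with any 1 library left out. Over all genes, 164 were called higher and 164 lower by limma, 79 and 91 with no filter, and 253 and 273 with DESeq2. Leaving out 1 library gave between 15 and 386 higher and between 41 and 416 lower, fewest without Shh null 1 and most without wild type 2.

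Replicate numbers in the titles were shared between groups, but nothing in the labels says that a number marks a shared source. With the replicate block 220 genes were called higher and 176 lower. Deviations of same-numbered libraries correlated at −0.20 across genes, and with the numbers crossed, an alternative chosen after seeing the data, 641 genes were called higher and 745 lower, among them 3 HoxC genes, all higher. Signs turned for Hoxc13 without Shh null 1 (−0.088; 0.44 without Shh null 2), for Hoxa4 with quantile normalization (−0.056), without wild type 1 (−0.12; 0.29 without wild type 2) and without Shh null 2 (−0.04), and for Hoxd9 without wild type 2 (0.28; −0.36 without wild type 1); the cause was not tested. Of the 372 refits of 31 named genes, 329 kept direction and side of the threshold, 18 gained a call, 20 lost it and 5 turned. The depth limits Hoxc9, with 17 to 46 reads a library, and Hoxc10, with 3 to 14.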
